A study of Mus musculus with 6 samples.

Results

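The comparison described here set C3H10T1/2 cells that express a short hairpin RNA against Nfib (shNFIB) beside the same cells with a control hairpin (shControl) at day 0, before any osteogenic medium was added. C3H10T1/2 is a mouse mesenchymal line of fibroblast-like cells that can be led to bone, fat or cartilage fates, and the study used it as a model of mesenchymal stem cells (MSCs). Genes entered the comparison when at least 1 of the 2 day 0 libraries held 20 or more read counts, a rule met by 14143 of the 55401 genes in the count table. The whole series has 6 RNA-seq libraries, 1 each for shControl, shNFIB and shMLL1 (a hairpin against the histone methyltransferase MLL1, encoded by Kmt2a) at day 0 and at day 7 of osteogenic culture. Per the labels the shControl cells carry the WT genotype, the shNFIB cells are described as NFIB knockdown, and both day 0 samples were untreated. All lines are derivatives of the same parental cells kept in DMEM with serum, and the labels do not say whether a hairpin line is a pool or 1 clone. The Nfib hairpin lowers the mRNA and leaves the gene intact, so shNFIB is a model of reduced rather than absent NFIB.

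NFIB is 1 of the 4 nuclear factor I proteins (NFIA, NFIB, NFIC and NFIX), which bind DNA as dimers at the palindrome TTGGCNNNNNGCCAA or, more weakly, at a single TTGGC. NFI proteins are best known for their part in the development of brain and lung and in keeping stem cells of the hair follicle, and they can act on chromatin as well as on promoters. The day 0 comparison asks which genes differ in expression when NFIB is low and differentiation has not been induced.

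The 2 day 0 libraries held 32662704 counts (shControl) and 34774066 counts (shNFIB). Levels are given as CPM, counts scaled to a fixed library total, with library sizes corrected by TMM factors from the 6 libraries (a normalization that trims extreme genes), so that 1 count was worth 0.0313 CPM in shControl and 0.0317 CPM in shNFIB. With 1 library per line there is no replicate error for the pair and no p-value. Each log2 ratio of shNFIB over shControl is therefore followed by its exact 95% interval, which covers counting error only. A gene was called higher or lower when its ratio was at least 2-fold and its interval left out a ratio of 1. A library at 0 counts was set to a floor of 3 counts, and the ratio is then a bound. Fewer cells of a type and less RNA per cell cannot be told apart in such bulk samples.

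Nfib itself was the first check. It lies on chromosome 4 of GRCm38 from 82290173 to 82705750 (ENSMUSG00000008575, minus strand). Its counts at day 0 were 3715 in shControl, 1115 in shNFIB and 1976 in shMLL1. At day 7 they were 2546, 241 and 1774. The shNFIB library had the lowest level on each day, and at day 0 its log2 ratio over shControl was -1.72 (-1.82 to -1.62), a level 3.29-fold lower. In shMLL1, compared with the same shControl library, the log2 ratio was -0.83. Among the other family members, Nfic went from 9353 to 5201 counts with a log2 ratio of -0.83 (-0.88 to -0.78), short of 2-fold. Nfia went from 629 to 880 counts and Nfix from 11179 to 12533 counts, with log2 ratios of 0.50 and 0.18. None of the 9 measured genes of the MLL1 complex and its partners was called, and Kmt2a itself had a log2 ratio of 0.21 (0.13 to 0.29).

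Across the 14143 genes, 799 were at least 2-fold higher in shNFIB (5.65%) and 705 were at least 2-fold lower (4.98%). Most genes were close to even, since 75.3% lay within 1.5-fold and the median log2 ratio was 0.09. The lower genes reached further than the higher ones. Of the called genes, 281 were at least 4-fold lower against 204 that were at least 4-fold higher, and 87 were at least 16-fold lower against 35 that were at least 16-fold higher. Among the 7085 genes with 1000 or more counts in 1 of the libraries, 174 were higher (2.46%) and 92 were lower (1.30%). Protein-coding genes were called higher in 4.99% and lower in 4.81% of cases, and the 2123 other genes in 9.37% and 5.98%. The order of the 2 counts rests on the scaling, because library size alone shifted all log2 ratios by -0.11 and gave 664 higher and 820 lower genes. At the edge of the gene rule, 101 genes had exactly 20 counts in their higher library and entered, and 132 had 19 counts and did not.

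**Figure D1:**
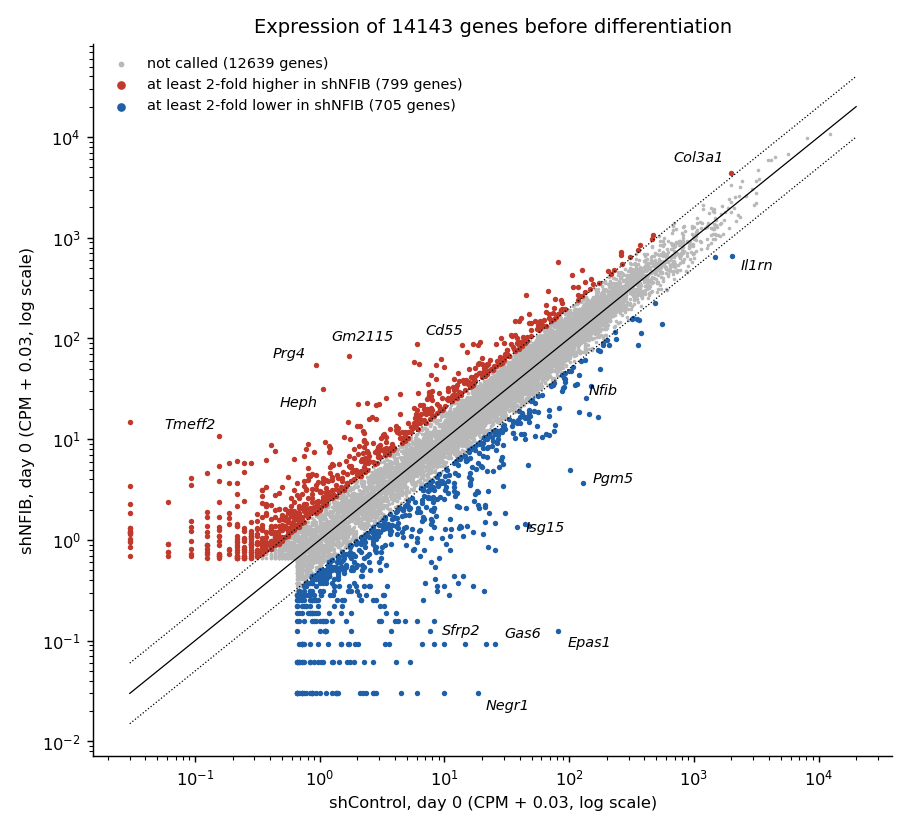
Level of each of the 14143 genes at day 0 in shControl (x axis) and shNFIB (y axis), both as CPM plus 0.03 on log scales; the solid line marks equal levels and the dotted lines a 2-fold difference. Red points are the 799 higher genes and blue points the 705 lower genes, and genes with 0 counts in 1 library sit on the edges at 0.03, such as Negr1 at the bottom.

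The lowest ratios were those of genes that shControl cells expressed at a clear level and that were at or near 0 in shNFIB. Epas1 encodes HIF-2alpha, an oxygen-regulated transcription factor. It had 2604 counts in shControl, 3 in shNFIB and 56 in shMLL1 at day 0, and 4555, 55 and 455 at day 7. Its day 0 log2 ratio was -9.74 (-12.02 to -8.20). Gas6, the secreted ligand of the TAM receptor kinases, had 813 counts in shControl and 2 in shNFIB, a log2 ratio of -8.65 (-11.70 to -6.79). At day 7 the same pair of lines held 22101 and 9 counts of Gas6. Negr1, a GPI-anchored adhesion protein of neurons, went from 597 counts to 0 and was at least 197-fold lower against the floor of 3 counts, with an interval bound of -7.32 on the log2 scale. Sfrp2, a secreted Wnt modulator, went from 682 counts to 2, with a log2 ratio of -8.40 (-11.45 to -6.54), and had 15 counts in shMLL1. In these 4 genes both shNFIB libraries lay below both shControl libraries.

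G0s2, an inhibitor of the lipase ATGL, went from 316 counts to 0, at least 104-fold lower against the same floor, with a log2 interval bound of -6.40. Erg, an ETS transcription factor known from endothelium and cartilage, went from 193 counts to 0, at least 63.6-fold lower, with a bound of -5.68. Perp, a desmosomal p53 target, went from 469 counts to 2 and Wscd2 from 317 to 2. The remaining genes of the 15 with the largest lower bounds were Ppp1r1b (661 to 9 counts), Col9a1 (142 to 0), Gpnmb (262 to 2), Pgm5 (4139 to 114), Entpd3 (169 to 1), Tmem252 (537 to 10) and Cnmd (209 to 2). Gpnmb, a transmembrane glycoprotein that is also found in osteoblasts, had 2093 counts in shMLL1 at day 0, whereas Pgm5, a relative of phosphoglucomutase at cell adhesions, had 192. Apart from Gpnmb, all of the 15 genes were also below shControl in shMLL1 at day 0. In shMLL1, G0s2 had 4 counts, Perp 9, Entpd3 1 and Cnmd 1, while Gas6 (359) and Negr1 (193) were less far below. Both comparisons use the same shControl library. In shNFIB, all 15 genes were called lower at day 7 as well.

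The 15 genes with the largest bounds in the other direction had few or no counts in shControl and clear expression in shNFIB, apart from Cd55. Prg4 encodes lubricin, the lubricating proteoglycan of joint surfaces, and had 29 counts in shControl, 1727 in shNFIB and 60 in shMLL1. Its log2 ratio was 5.91 (5.39 to 6.50). Heph, a ferroxidase of iron export, went from 33 to 1005 counts with a log2 ratio of 4.95 (4.45 to 5.49), and Gm2115 from 54 to 2136 with 5.32 (4.93 to 5.74). Cd55, which protects cells from complement, went from 190 to 2794 counts with a log2 ratio of 3.89 (3.68 to 4.11). Luzp4, Malrd1 and Stac had 0 counts in shControl and 108, 71 and 58 in shNFIB. Tmeff2 went from 4 to 339 counts, Pde7b from 2 to 129, Tnr from 4 to 170, Lipn from 6 to 190, Dach2 from 1 to 74, Ctla2a from 12 to 273 and Ccdc85a from 7 to 182. Dach2 was also present in shMLL1 (108 counts) and had 0 counts in both lines at day 7. Tnr had 1 count in shControl and 9 in shNFIB at day 7, too few to enter the day 7 comparison. Srp54b went from 3 to 145 counts, but it has near-identical copies among which counting can split reads. Exons of Prg4, Heph and Gas6 overlap exons of Tpr, Hsf3 and Tmem255b on the other strand, and the strand setting of the counting is not given in the sources used here.

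Some of these genes lie side by side, in positions that the gene rule did not use (coordinates are of GRCm38, from GENCODE M21). Pgm5 (chromosome 19, 24683016 to 24861855) and Tmem252 (24674008 to 24682233) are neighbours, and both were lower. Negr1 (chromosome 3, from 156561794) adjoins the noncoding gene 4930570G19Rik, which went from 55 counts to 1. Cd55 (chromosome 1, 130439027 to 130462744) is next to Gm15675 and Gm15674, noncoding genes that went from 5 to 181 and from 2 to 109 counts. Exons of Gm15675 and Gm15674 overlap on opposite strands, so without the strand setting their counts may hold the same reads. Gm15675 lies downstream of Cd55 on the same strand, and whether its counts are separate from those of Cd55 was not tested. Gm48395, a noncoding gene on chromosome 14, went from 0 to 465 counts and was absent from all shControl and shMLL1 libraries. These neighbours were named after their values were seen.

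By absolute level, the 5 largest gains in CPM were of Col3a1, Bgn, Col1a2, Vim and the mitochondrial gene mt-Co1, and of these Col3a1 alone was called, with 63240 and 139930 counts and a log2 ratio of 1.16 (1.15 to 1.18). The 5 largest losses were of Eef1a1, Il1rn, Rplp0, Eef2 and Rpl41. Il1rn, the secreted antagonist of the interleukin-1 receptor, had 64578 counts in shControl and 21044 in shNFIB, a log2 ratio of -1.60 (-1.62 to -1.58), and at day 7 the ratio was -1.57. Rpl41 was called lower with a log2 ratio of -1.19. A list of cytosolic ribosomal proteins, formed from gene symbols after this was seen, lay below an even ratio in 76 of 80 measured members, with a median of -0.44, although Rpl41 alone reached 2-fold (5 members did with library size alone). Ribosomal protein genes have many processed pseudogenes that share sequence with them, so their counts are uncertain.

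Genes named in the study as direct targets of NFIB and MLL1 were split. The study reports a longer list of such targets, and only those that its text and figures name were taken here. The shares below therefore describe named examples and not the full list. Of the 12 measured, 4 were called lower (33.3%, beside 4.98% of all genes), none higher, and the median log2 ratio was 0.02 beside 0.09 over all genes. Efnb1, a transmembrane ephrin ligand, went from 907 to 194 counts with a log2 ratio of -2.21 (-2.44 to -1.98). Plpp3, a phosphatase that degrades lysophosphatidic acid, went from 2209 to 531 counts (-2.04, -2.18 to -1.90). Dlx5, a homeobox factor of early bone formation, went from 408 to 140 counts (-1.53, -1.81 to -1.25), and Cebpa, a master regulator of adipogenesis, from 608 to 232 counts (-1.37, -1.60 to -1.15). The other 8 lay between -0.63 for Dhcr7 and 0.45 for Plxna3. The study drew these targets from ChIP-seq of the same lines and set Dlx5 and Cebpa beside its expression data as well, so the list is not fully independent of these libraries.

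The 300-base promoter windows of RefSeq (GRCm38.p6) were searched for NFI letters in the 250 bases before the start site. Shares are of gene symbols, and a symbol counted if any of its promoters held the letters. The letters TTGGC, on either strand, occurred for 45.3% of all 27025 symbols and for 50.7% of the 9970 that matched the genes compared here. They occurred for 49.3% of the 487 matched higher genes and for 52.2% of the 437 matched lower genes. The full palindrome occurred for 12 symbols, 5 of them of genes compared here. The following sequences are shown because they hold these letters upstream of genes that were called, the first 3 with TTGGC and the last 2 with the palindrome. Capitals mark the matches, and each is written 5′ to 3′ on the strand of its gene.
Sfrp2, 2 TTGGC sites (chr3:83766216-83766315, plus strand): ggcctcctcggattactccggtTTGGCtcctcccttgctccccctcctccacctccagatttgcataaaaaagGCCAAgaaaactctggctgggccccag
Plpp3, 1 TTGGC site (chr4:105157235-105157334, plus strand): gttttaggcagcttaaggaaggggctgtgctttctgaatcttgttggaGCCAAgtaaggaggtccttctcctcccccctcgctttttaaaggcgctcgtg
Efnb1, 1 TTGGC site (chrX:99135824-99135923, plus strand): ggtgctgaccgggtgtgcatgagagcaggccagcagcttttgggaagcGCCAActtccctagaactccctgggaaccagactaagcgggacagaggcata
Gstm7, palindrome (chr3:107931848-107931887, minus strand): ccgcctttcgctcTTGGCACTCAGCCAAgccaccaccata
Hrh1, palindrome (chr6:114397769-114397808, plus strand): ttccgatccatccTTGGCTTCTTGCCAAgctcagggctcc
Gstm7, a glutathione transferase with close paralogs, had 45 counts in shControl and 1 in shNFIB, and the histamine receptor gene Hrh1 was higher in shNFIB with a log2 ratio of 2.34. Of the called genes matched to a promoter, these 2 held the palindrome, and they differed in opposite directions. A match of letters is a description of the promoter and not evidence of binding.

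Osteogenic regulators lay slightly below an even ratio as a list before differentiation. Of 13 measured, 11 lay below an even ratio, and the median was -0.17 beside 0.09 over all genes. Dlx5 and Runx3 were called lower (15.4%, beside 4.98% of all genes) and none higher. Runx2, the master factor of bone formation, had 1047 and 993 counts and a log2 ratio of -0.06 (-0.19 to 0.07), within counting error. At day 7 the same lines had 3561 and 898 counts of Runx2. Sp7, Dlx6 and Msx2 were under 20 counts in both day 0 libraries. Bone matrix and mineralization genes showed 2 lower of 13 (15.4%) and none higher. The lower ones were Tnfrsf11b (11315 to 2703 counts, -2.05, -2.11 to -1.99), which encodes the RANKL decoy osteoprotegerin, and Enpp1 (248 to 102), which makes pyrophosphate. Spp1 (osteopontin) had 6930 and 6843 counts with a log2 ratio of -0.00, and Col1a1 had 33339 and 35694 with 0.12. Alpl and Bglap were under 20 counts.

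Of 18 adipogenic regulators 5 were called lower, a share of 27.8% beside 4.98% of all genes, and 2 were called higher, a share of 11.1% beside 5.65%. Ppargc1a, a coactivator of mitochondrial genes, was the lowest with 414 and 66 counts (-2.63, -3.03 to -2.25), and Cebpa, Zfp423, Dlk1 and Klf15 lay between -1.37 and -1.04. Gata3, an inhibitor of adipogenesis, was higher (1.63, 1.31 to 1.96) and so was Ebf2 (1.09, 0.52 to 1.68), which fell under 2-fold with library size alone. Pparg had 867 and 1647 counts and a log2 ratio of 0.94 (0.82 to 1.06), just under the threshold. Of 11 measured adipocyte genes 1 was called, Dgat2 (-1.11), an enzyme of triglyceride synthesis.

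Of 12 measured cartilage genes, 7 were called lower (58.3%, beside 4.98% of all genes) and 1 higher, and the median was -1.07 beside 0.09 over all genes. Besides Col9a1 and Cnmd (chondromodulin), these included Sox9, the factor that drives chondrogenesis (5962 to 2747 counts, -1.10, -1.17 to -1.04), Comp, Matn3 and Matn4 (920 to 210 counts, -2.11). Col2a1, the main cartilage collagen, had 7124 and 5762 counts and was not called (-0.29), and Acan had 0 counts in both libraries. The higher member, Col11a2 at 1.02, fell under 2-fold under each other scaling that was tried. Of 13 smooth muscle contractile genes, Lmod1, Actg2, Des and Myl9 were lower (30.8%, beside 4.98% of all genes). Synpo2 was higher (7.69%, beside 5.65%), whereas Acta2 had 48439 and 47088 counts with a log2 ratio of -0.02. The myogenic list had 5 measured members, of which Pax3 (223 to 11 counts, -4.32, -5.35 to -3.46) and Des were lower.

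Surface markers and other genes that mark MSCs were measured next. Of 14 of them with enough counts, 2 were called higher (14.3%, beside 5.65% of all genes), none lower, and the median was 0.40 beside 0.09 over all genes. Thy1 (CD90) had 2176 counts in shControl, 9406 in shNFIB and 978 in shMLL1, and was 4.37-fold higher in shNFIB, a log2 ratio of 2.13 with a lower bound of 2.06. Alcam (CD166), a cell adhesion molecule, had 1438, 8585 and 2094 counts, with 2.59 (2.51 to 2.68). At day 7 both were again higher in shNFIB, with log2 ratios of 2.61 and 2.66. Ly6a (Sca-1), Cd44 and Vcam1 had log2 ratios of 0.35, 0.71 and 0.85, and Eng and Pdgfra of -0.38 and -0.28. Markers of other cell types were partly at 0 and partly expressed. The endothelial genes Kdr and Tie1, the leukocyte genes Itgam, Adgre1 and Cd3e, and the epithelial genes Epcam, Krt18 and Krt5 had 0 counts in both libraries. Summed levels of these lists at day 0 were 18.0 and 25.5 CPM for 6 endothelial markers (nearly all from Tek), 24.6 and 23.2 CPM for 9 macrophage and leukocyte markers and 9.24 and 6.24 CPM for 7 epithelial markers, in shControl and shNFIB in that order. Apart from Tek, the members with 20 or more counts were the leukocyte list's Cd14 (703 and 681 counts) and Cd68 (62 and 38) and the epithelial list's Cdh1 (286 and 183), none of them called, and the part of such cells in any result was not tested.

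**Figure D2:**
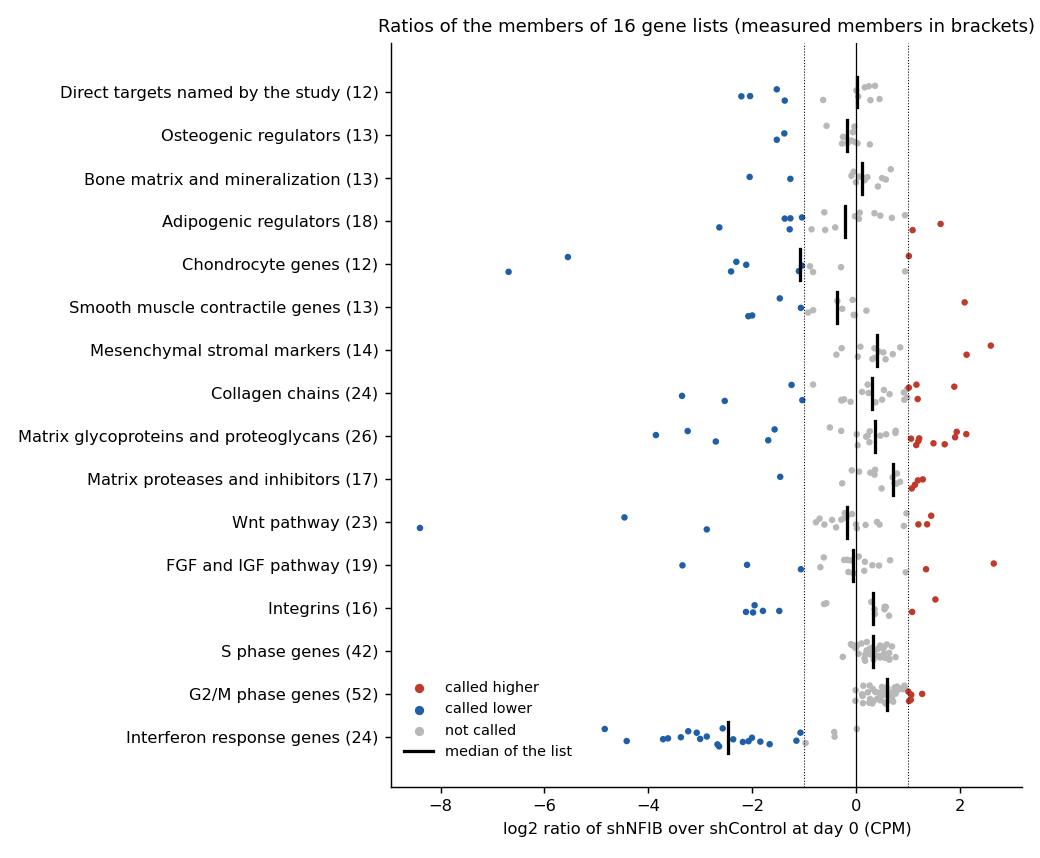
Log2 ratio of shNFIB over shControl at day 0 for the measured members of 16 gene lists, 1 point per gene with random vertical scatter; black bars are list medians and dotted lines mark 2-fold. The interferon response genes lie farthest to the left, with a median of -2.47, and cartilage genes next, while most cell cycle genes lie between 0 and 1.

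Matrix genes differed in both directions. Of 24 collagen chains 4 were higher and 4 lower (16.7% each, beside 5.65% and 4.98% of all genes). Col3a1, Col6a3 (15010 to 33764 counts, 1.19) and Col14a1 were higher with Col11a2, and Col27a1 (351 to 34 counts, -3.35, -3.90 to -2.84), Col28a1 (2066 to 354, -2.53), Col15a1 and Col5a3 were lower. Among 26 other glycoproteins and proteoglycans 9 were higher (34.6%) and 5 lower (19.2%). Fibrillins parted, since Fbn1 went from 8296 to 23053 counts (1.49, 1.45 to 1.53) and Fbn2, the fibrillin of embryonic tissue, from 3841 to 584 (-2.70, -2.83 to -2.57). Elastin (Eln) had 351 and 24 counts (-3.85, -4.52 to -3.26). Decorin (Dcn) had 1320 and 5001 counts (1.94, 1.85 to 2.03), and versican (Vcan), nidogen-1 (Nid1), Lama5 and Tnxb were among the others that were higher. The small proteoglycans Lum and Fmod were lower but rested on 21 and 49 counts in shControl. Of 17 proteases and inhibitors, Adamts1, Adamts2, Adamts5 and Mmp3 were higher (23.5%) and 1 was lower (5.88%). Adamts5 went from 14741 to 30642 counts (1.07). Of 16 measured integrins, Itga1, Itga8, Itga11, Itgb2 and Itgb4 were lower (31.2%) and Itgb3 and Itgb7 higher (12.5%). Itga1 and Itga11, both collagen-binding chains, went from 1387 to 354 and from 291 to 83 counts.

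In the signalling lists single genes differed strongly. For comparison, 5.65% of all genes were called higher and 4.98% lower. The Wnt list had 3 higher and 3 lower of 23. Besides Sfrp2, the transcription factor gene Tcf7 went from 267 to 12 counts (-4.46, -5.43 to -3.63) and the ligand Wnt5b from 178 to 24 (-2.87, -3.55 to -2.25), while the related ligand Wnt5a went from 403 to 1086 (1.45, 1.28 to 1.62), with the receptor Fzd5 and the inhibitor relative Dkk3 also higher. Of 19 FGF and IGF genes, the ligand Fgf10 went from 438 to 2720 counts (2.65, 2.51 to 2.80) and its receptor gene Fgfr2 from 431 to 42 (-3.34, -3.84 to -2.88). Igf1r (-1.06) and Igfbp3 (-2.10) were lower and Igfbp7 was higher (1.35). Of 18 BMP genes, the inhibitory Smad6 and Smad7 (1.08 each) were among those higher and the pseudoreceptor Bambi was lower (338 to 122, -1.45, -1.76 to -1.15). Of 16 TGF-beta genes, Inhba (1.23) and Tgfbi (1.10) were higher. Of 17 Notch and Hedgehog genes, the ligand Jag2 was higher (132 to 370, 1.50) and the receptor Notch1 (1598 to 776, -1.03), the Hedgehog co-receptor Boc (2973 to 1172, -1.33) and its decoy Hhip (39 counts to 1, -5.27, -10.61 to -2.71) were lower. Among 15 measured ephrins and Eph receptors, Epha4 and Ephb6 were higher and Efnb1 was lower. Of 20 chemokine and cytokine genes 5 were higher and 3 lower. Il1rl1, the interleukin-33 receptor, went from 275 to 1715 counts (2.66, 2.47 to 2.85), and Il33, Tslp, Il6 and Ccl8 were higher from low counts, while Ccl5, Ccl20 and Cxcl10 were lower. Hoxa2 (469 to 214, -1.12) was the called gene among 8 measured Hox genes, and of 9 measured neural genes Map2 and Slc1a2 were higher and Gap43 was lower. Of the matrix and signalling genes named as higher, Adamts5, Smad6, Smad7, Il6, Itgb3 and Epha4 fell under 2-fold with library size alone and with TMM on the pair, and Tgfbi and Map2 did so with library size alone.

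Epas1 and Gas6 were set beside their pathway partners, in lists drawn up after their values were seen. Of 15 measured genes of the hypoxia-inducible factors and their common targets, 3 were lower and none higher, beside 4.98% and 5.65% of all genes. The median was -0.18 beside 0.09 over all genes, and at day 7 the list had a median of 0.61. Epas1 was 1 of the 3 lower genes by the choice of the list, and the others were Pdk1 (-1.04) and Ankrd37 (-1.12). Hif1a, which encodes the other main alpha subunit, had 5932 and 7449 counts (0.35), and Vegfa, Slc2a1 and Ldha had log2 ratios of -0.52, 0.08 and -0.18. For Gas6, the receptors Axl, Tyro3 and Mertk had log2 ratios of 0.82, -0.52 and -0.26, and the related ligand Pros1 of 0.90, none of them called.

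Cell cycle genes lay slightly above an even ratio as lists. Of 42 S phase genes 36 lay above an even ratio and of 52 G2/M phase genes 50 did, with medians of 0.33 and 0.59. Calls were few, at 0 and 5, all of them higher (9.62% of the G2/M list, beside 5.65% of all genes). Cenpf, a kinetochore protein, had 1811 and 4326 counts (1.27, 1.19 to 1.35), and Anln, Nek2, Gtse1 and Kif23 lay between 1.01 and 1.06, so that Cenpf alone kept its call with library size scaling. Ccnd1, encoding cyclin D1, had 11441 and 23754 counts (1.07, 1.04 to 1.10) and was likewise under 2-fold with that scaling. Cdkn1a, which encodes the inhibitor p21, had 6646 and 12766 counts (0.96). At day 7 the medians of the S phase and G2/M lists were -0.19 and -0.46.

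The interferon response list had the largest share of genes called lower at day 0 among the 31 gene lists. These genes are switched on by interferons through a complex that holds STAT2 and IRF9, and act against viruses. Of 24 measured members 20 were called lower in shNFIB (83.3%, beside 4.98% of all genes), none higher, and the median log2 ratio was -2.47. Isg15, a ubiquitin-like modifier, had 1216 counts in shControl, 42 in shNFIB and 14853 in shMLL1, with a log2 ratio of -4.84 (-5.32 to -4.40) for shNFIB. Ifit1, which binds foreign RNA, had 5450, 520 and 12030 counts (-3.37, -3.51 to -3.24). Oas2 had 452, 34 and 4804 counts and Usp18 722, 58 and 5306. The order of the 3 lines was the same for these 4 genes, with shNFIB lowest and shMLL1 highest. Of the transcription factors of the pathway, Irf7 had a log2 ratio of -2.64, close to the median of the list, and Stat2 and Irf9 lay nearer to even at -1.15 and -1.07, while Ifit2 (3069 and 3066 counts, 0.02) was even. The family members Ifit3 and Oas1a have close paralogs, so that their counts are less certain.

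Promoters show the letters through which such genes are known to respond. The motif GAAANNGAAA, on either strand, lay within 250 bases before the start for 3.46% of all gene symbols with a promoter. It did so for 3.15% of those matched to the genes compared here, and for 9 of the 17 matched interferon response genes (52.9%). Among called genes it was in 6.41% of the matched lower and 3.49% of the matched higher genes. The lower genes with the motif include members of the interferon response list, such as the 4 below, so these shares are not independent. The windows of 4 strongly lower genes are shown, with matches in capitals and each 5′ to 3′ on the strand of its gene (GRCm38.p6).
Isg15 (chr4:156200856-156200915, minus strand): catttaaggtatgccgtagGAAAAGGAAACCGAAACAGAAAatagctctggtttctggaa
Ifit1 (chr19:34640769-34640828, plus strand): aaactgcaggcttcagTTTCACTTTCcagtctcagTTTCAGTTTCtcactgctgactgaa
Bst2 (chr8:71537565-71537624, minus strand): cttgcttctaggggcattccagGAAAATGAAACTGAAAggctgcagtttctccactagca
Oas1a (chr5:120907526-120907585, minus strand): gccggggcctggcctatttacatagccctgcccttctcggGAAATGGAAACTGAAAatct
In Isg15 and Bst2 the matches overlap each other, and in Ifit1 they stand apart. Bst2 (tetherin) had 2213 counts in shControl and 344 in shNFIB and Oas1a 608 and 64.

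The same list stood the other way at day 7. The median level of its 24 genes was 25.0 CPM in shControl, 3.94 in shNFIB and 123 in shMLL1 at day 0, and 31.1, 73.6 and 40.8 CPM at day 7. In the day 7 libraries all 24 lay above an even ratio of shNFIB over shControl, 15 of them were called higher, and the median log2 ratio was 1.16. Ifi44, for instance, had 594 and 70 counts at day 0 and 894 and 4750 at day 7. With 1 library per line and day, a difference between lines cannot be told apart from a difference between single cultures.

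**Figure D3:**
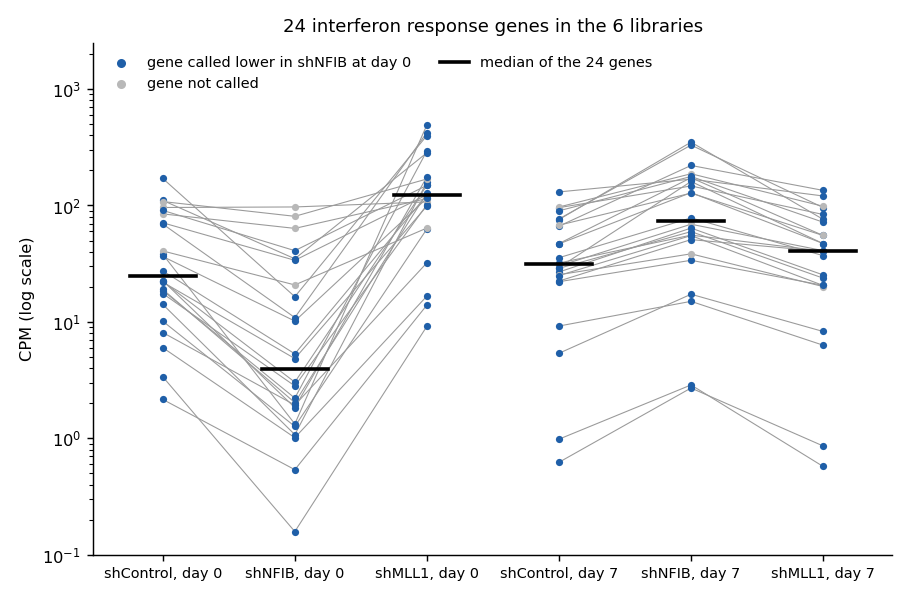
CPM on a log scale of the 24 measured interferon response genes in each of the 6 libraries, 1 point per gene and thin lines joining the same gene within a day. Black bars are medians, which are lowest in shNFIB at day 0 (3.94 CPM) and highest in shMLL1 at day 0 (123 CPM).

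Day 7 libraries of the same lines, which the day 0 calls did not use, gave a second reading. Of 13591 genes measured on both days, 6.67% were higher and 7.81% lower in shNFIB at day 7. Among the genes called higher at day 0, 312 of 656 were also higher at day 7, a share of 47.6%, and 25 (3.81%) were lower. Of those called lower at day 0, 339 of 600 were also lower at day 7, a share of 56.5%, and 41 (6.83%) were higher. Seen from day 7, these were 34.4% of the 907 higher and 31.9% of the 1062 lower genes. Across genes the log2 ratios of the days had a Pearson correlation of 0.589 and a Spearman correlation of 0.466, a description in which each line's libraries share their origin and genes are not independent. Of the 41 genes that were lower at day 0 and higher at day 7, 14 belonged to the interferon response list. Penk, which encodes the opioid precursor proenkephalin, also turned, with 404 and 67 counts at day 0 and 44 and 673 at day 7, and so did Atf3 (321 and 135, then 71 and 440). In the other direction Shroom3 had 25 and 124 counts at day 0 and 143 and 18 at day 7. These 3 were chosen after their values were seen.

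**Figure D4:**
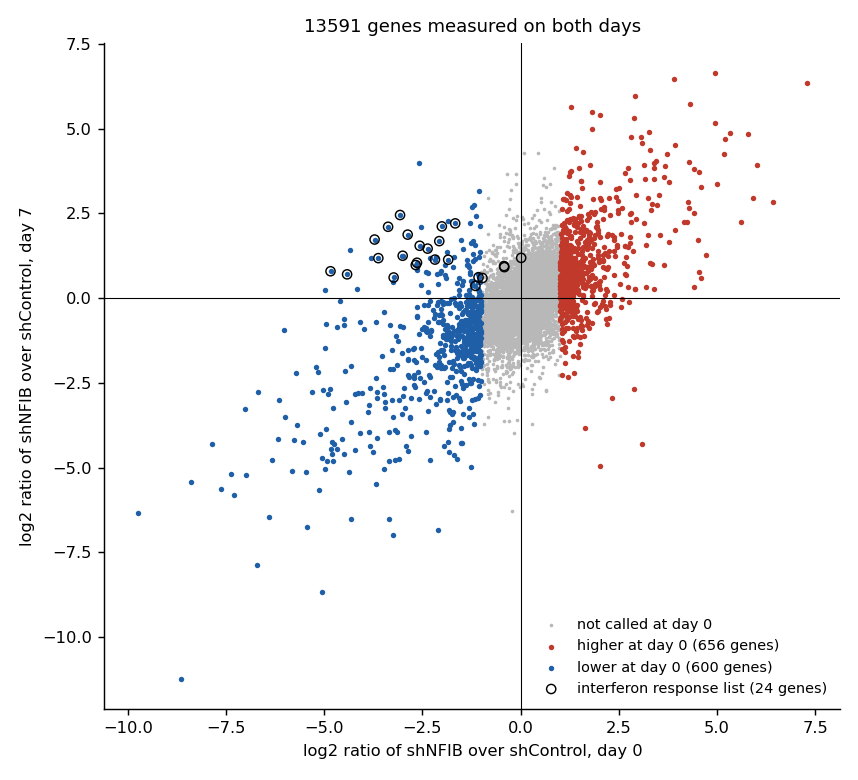
Log2 ratio of shNFIB over shControl at day 0 (x axis) and day 7 (y axis) for the 13591 genes measured on both days, with the day 0 calls in red and blue. Most called genes lie in the lower left and upper right, and the circled interferon response genes in the upper left.

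A fit over all 6 libraries with line and day as terms (edgeR's quasi-likelihood test, Benjamini-Hochberg adjustment) compared lines with 2 libraries each. Of 14115 genes of the comparison that it tested, 19 were higher (0.135%) and 42 lower (0.298%) in shNFIB over both days. All of them were also called at day 0, but the fit holds the same 2 day 0 libraries, so this overlap is no separate evidence. The fit had 2 residual degrees of freedom and a biological coefficient of variation of 0.281, and 1209 higher and 884 lower genes of all 16660 tested had an unadjusted p under 0.05. Over all genes tested the counts were 19 and 44, against 246 and 287 with the 4 shControl and shNFIB libraries alone, 299 and 312 with DESeq2 and 341 and 347 without the filter on low counts, so the genes below are those of the first fit only. Gas6 (adjusted p = 0.012), Epas1 (0.030), Negr1 (0.030), Sox13 (0.030), Faah (0.027) and Plpp3 (0.036) were among the lower genes in this edgeR fit. Gm2115 (adjusted p = 0.0071), Maob (0.027), Thy1 (0.030), Alcam (0.030), Heph (0.030) and Etv1 (0.030) were among the higher ones. Of the direct target list Plpp3 passed, and Thy1 and Alcam were the 2 stromal markers that did. Dlx5 (adjusted p = 0.15), Nfib (0.14) and Sfrp2 (0.054) did not pass in the same fit, which treats any change of the line difference with the day as noise. No interferon response gene passed in it.

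Ratios also differed by chromosome. Of 839 measured genes on chromosome 1, 13.2% were higher and 4.65% lower, and their median log2 ratio was 0.40. On chromosome 10, 3.33% of 691 genes were higher and 8.54% lower, with a median of -0.23. The medians of the other autosomes and X lay between -0.02 and 0.19. When each chromosome was cut into 20-Mb bins, all 10 bins of chromosome 1 had medians between 0.26 and 0.68, and all 7 bins of chromosome 10 between -0.29 and -0.10. Bins of 30 or more genes elsewhere ran from -0.16 to 0.50, the highest of them at the start of chromosome 2. In the day 7 libraries, chromosome 1 had a median of 0.39 and chromosome 10 of -0.26. In shMLL1 at day 0, against the same shControl library, these medians were 0.04 and -0.22. The other autosomes and X ran from -0.27 (chromosome 14) to 0.08 (chromosome 3) in that comparison. Of the genes named above, Col3a1, Prg4, Cd55, Tmeff2 and Tnr, all higher, lie on chromosome 1, but so do G0s2 and Col9a1, which were lower. On chromosome 10 lie Perp and Rpl41, which were lower, and Pde7b, which was higher. Without these 2 chromosomes 665 genes were higher and 607 lower.

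**Figure D5:**
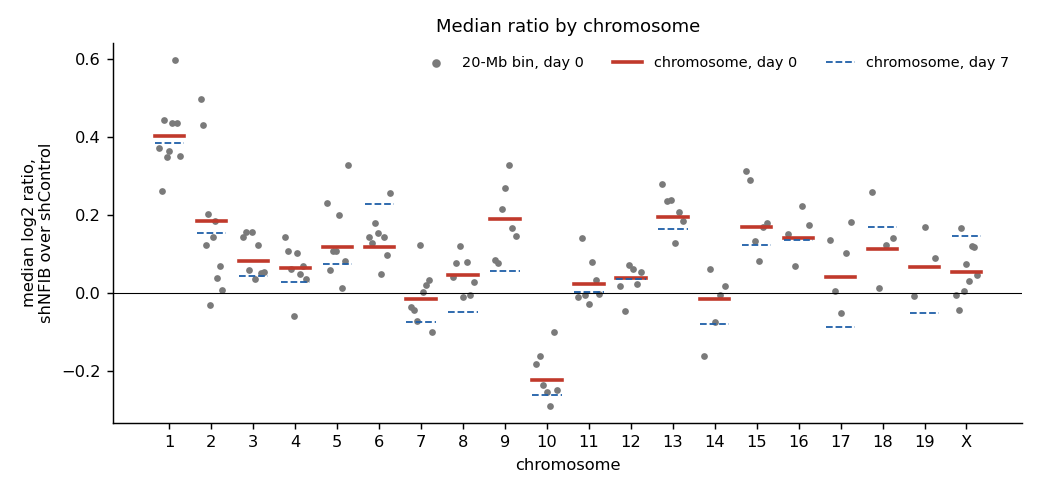
Median log2 ratio of shNFIB over shControl for each chromosome at day 0 (solid bars) and day 7 (dashed bars), with day 0 medians of 20-Mb bins of at least 30 genes as grey points. The points of chromosome 1 lie at 0.26 or higher and those of chromosome 10 at -0.10 or lower.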

How the data were processed

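RNA of 6 C3H10T1/2 samples was sequenced by the authors (TruSeq libraries, paired reads of 100 bp). Per the study's methods and the submitters' processing notes, the authors used Trimmomatic 0.39 for trimming, HISAT2 2.2.1 for alignment to the GRCm38 (mm10) genome, SAMtools 1.12 for a filter on mapping quality, and HTSeq 0.11.1 for counting reads per gene after PCR duplicates had been removed. The annotation release and the strand setting are not given in the sources used here. The deposited values are raw counts per gene, with 21608680 to 34774066 per library, and no row was left without a gene.

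Counts were scaled with TMM in edgeR 4.0.16 (R 4.3.3) over the 6 libraries. With 1 library per line and day, the pair was compared by ratio, with an exact Clopper-Pearson 95% interval of the 2 counts (scipy 1.17.1). Such intervals and the floor of 3 counts cover counting error only. Genes needed 20 counts in 1 of the 2 libraries, and calls needed a 2-fold ratio, as in the study, and an interval without 1. The study used edgeR with an FDR of 5%, but no dispersion is stated, and so no p-value was given for the pair. The line effect was tested with edgeR's quasi-likelihood test (line and day, filterByExpr, Benjamini-Hochberg adjustment over all genes tested). Its p-values rest on the spread left after line and day, not on replicate cultures. With 1 library per line and day, that spread cannot part changes of a line difference between days from differences between cultures. The ratio rule was tried on simulated counts with counting error only, so that trial cannot speak to false calls from differences between cultures. The line effect test was tried on simulated counts with the biological coefficient of variation of its own fit. Gene positions came from GENCODE M21, which matched 55141 of 55401 identifiers, and promoters from RefSeq (9970 symbols matched).

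Named genes were the NFI family and the direct targets named in the study, the 15 protein-coding genes in each direction whose interval bound lay farthest from an even ratio, the 5 largest CPM differences in each direction, and up to 6 called members in each direction of 31 gene lists, with a few bone and fat genes that the study names. Members named beyond that rule (stromal and other cell type markers, interferon response genes and single members such as Acta2, Acan, Col2a1 and Cdkn1a) were chosen after their values were seen, and a few genes are not reported here. The genes, lists and rules were chosen with earlier results of these data known. Alternatives were other scalings (library size, DESeq2 1.42.0 size factors, TMM on the pair), other count minimums, stricter and looser calls, thinning to equal depth, an exact test with assumed dispersions and other fits of the line effect.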

Additional observations from a re-analysis of the deposited data

Results flagged for a closer look

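The interferon response genes differed in direction between the days. Their median log2 ratio of shNFIB over shControl was -2.47 at day 0 and 1.16 at day 7, over 24 measured genes. The G2/M phase genes also changed sides, with a median of 0.59 at day 0 and -0.46 at day 7 over 52 genes. Both lists drew attention because the 2 time points moved in opposite directions in the same comparison. The difference between days was not tested, because there is 1 library per line and day.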

How the results depend on the processing

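The scalings, a minimum of 10 counts or none, the ratio without its interval, thinning and protein-coding genes alone kept both counts of called genes within 1.5 times of 799 higher and 705 lower, but the share of higher genes among all calls, 53.1%, became 44.7% with library size alone and 46.0% with TMM on the pair. A minimum of 100 counts gave 428 higher and 365 lower, and an interval wholly beyond 2-fold gave 401 and 399. edgeR's exact test with an assumed biological coefficient of variation kept 701 and 631 at 0.1, 343 and 375 at 0.2, and 48 and 105 at 0.4. Without the genes of chromosomes 1 and 10, a choice made after seeing the data, 665 and 607 remained, and without the interferon response list, also added later, 799 and 685. The log2 ratio of Nfib was -1.83 with library size alone. The share of higher genes that were also higher at day 7 was 56.1% at a minimum of 100 counts. The line effect over both days called 19 and 44 of all 16660 genes tested, against 246 and 287 with the 4 shControl and shNFIB libraries alone, 341 and 347 without the filter on low counts, 299 and 312 with DESeq2, and 19 and 47 with DESeq2 size factors. The cause of these differences was not tested. The median of the direct target list and that of the Hox genes turned sign with library size alone and with TMM on the pair, and no other list median did. With 1 library per line and day, nothing separates a hairpin from a single culture, and no library could be left out of the pair. No paired analysis was possible because the samples carry no replicate numbers, apart from the line effect, whose fit has day as a term and so sets the lines side by side within each day.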
